A study of Homo sapiens with 9 samples.

Results

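The constant genes of the T-cell receptor were examined as regions of accessible chromatin in Jurkat cells. Peaks of 4 deposited lists that overlapped or touched were joined, which gave 40703 merged regions on chromosomes 1 to 22, X and Y. A region was counted when it lay in the body of TRAC, TRDC, TRBC1, TRBC2, TRGC1 or TRGC2 or within 50 kb of either end, with gene positions from GENCODE release 44 on GRCh37. The rule used position only and no measured value. Of the 6 genes, 5 could be placed, and 23 of the 40703 regions were found near them: 12 at the alpha and delta locus, 9 at the beta locus and 2 at the gamma locus. TRBC1 was not placed with the annotation used and was not analysed here.

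FAIRE-seq, which sequences DNA that stays in the aqueous phase when fixed chromatin is extracted with phenol and chloroform and so enriches nucleosome-poor DNA, was performed on Jurkat, a human T cell leukaemia line (Clone E6-1), in a cell culture model of transcriptional memory. The study asked how a first stimulation leaves its mark on accessible chromatin. Of 9 samples, 4 had a peak list, each from 1 library, and the others were not analysed here. By their labels, the NS DMSO list came from non-stimulated cells in DMSO, the vehicle, and the SW DMSO list from cells in DMSO given PMA (24 ng/mL) and 1 μM of a calcium ionophore for 4 h, washed, and rested for 1 day. The NS rottlerin and SW rottlerin lists came, by their labels, from the same states with 15 μM rottlerin, used as an inhibitor of protein kinase C. The study describes rottlerin as a pre-treatment that was removed by washing when the stimulus was withdrawn. Peaks were called in every list against the total input DNA.

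The labels and the methods of the study do not describe the same lists. Joining all peaks on every contig gave 40731 regions. This equals the merged total that the methods describe for DMSO libraries alone, in the NS, ST (stimulated), SW and RS (re-stimulated) states. Lists labelled SW DMSO, NS rottlerin or SW rottlerin, and the NS DMSO list too, may thus be other libraries than their labels say, such as those of stimulated or re-stimulated cells in DMSO, and which they are was not settled here. The methods also give a shorter first stimulation than the labels. Each list is therefore called by its label only, and no difference between lists is read as an effect of stimulation or of rottlerin. With 1 library per list there is no spread between replicates and no test, and the differences below compare lists. A smaller share of cells with open chromatin and less opening per cell cannot be told apart in such libraries.

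A T-cell receptor is a pair of chains, alpha with beta or gamma with delta, and the constant gene supplies the part of each chain that all receptors of that kind share. The variable part is made by joining V, D and J gene segments in the thymus, and in the alpha locus the delta constant gene TRDC lies between the V and the J alpha segments, so that joining a V alpha to a J alpha segment removes TRDC from that chromosome. Enhancers are known downstream of TRAC, of TRBC2 and of TRGC2, and the one of the alpha locus is known for a CRE site, bound by ATF and CREB proteins, next to a TCF/LEF site. Jurkat cells carry an alpha-beta receptor. Whether a region below is one of these enhancers was not tested.

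Regions are named by the nearest constant gene and the distance in kb from its start to the middle of the region, with plus for downstream in the direction of transcription. The 4 sequences here are the central 300 bases of regions with a peak in all 4 lists, at each of the 3 loci, and they are shown because the results turn on these regions. They are read from GRCh37 on the plus strand, 5′ to 3′, and capitals mark matches on either strand to 5 consensus sequences. These were TGACGTCA for the CRE, CTTTGA for the TCF and LEF factors, TGTGGT for the RUNX factors, AGGAAG for the ETS factors and AGATAA for the GATA factors.
TRAC +8.89 kb region, chr14:23025183-23025482: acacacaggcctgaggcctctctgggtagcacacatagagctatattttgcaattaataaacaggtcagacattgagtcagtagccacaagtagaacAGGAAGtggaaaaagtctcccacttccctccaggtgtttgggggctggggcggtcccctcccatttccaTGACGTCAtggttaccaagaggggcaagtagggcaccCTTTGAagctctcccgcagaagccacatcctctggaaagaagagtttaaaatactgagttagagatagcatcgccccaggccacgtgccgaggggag
TRBC2 +7.67 kb region, chr7:142506248-142506547: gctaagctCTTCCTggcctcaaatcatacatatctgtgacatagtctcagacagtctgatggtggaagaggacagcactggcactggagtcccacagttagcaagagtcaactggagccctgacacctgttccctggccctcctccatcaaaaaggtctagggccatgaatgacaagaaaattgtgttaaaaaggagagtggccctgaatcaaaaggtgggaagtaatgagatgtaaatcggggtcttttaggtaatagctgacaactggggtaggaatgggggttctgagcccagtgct
TRBC2 -4.92 kb region, chr7:142493655-142493954: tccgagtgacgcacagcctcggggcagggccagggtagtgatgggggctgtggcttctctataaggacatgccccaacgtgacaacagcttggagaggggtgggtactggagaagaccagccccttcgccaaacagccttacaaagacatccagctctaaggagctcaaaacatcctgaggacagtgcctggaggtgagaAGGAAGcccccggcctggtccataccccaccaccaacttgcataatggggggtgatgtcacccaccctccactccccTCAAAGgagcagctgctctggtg
TRGC2 +16.4 kb region, chr7:38272597-38272896: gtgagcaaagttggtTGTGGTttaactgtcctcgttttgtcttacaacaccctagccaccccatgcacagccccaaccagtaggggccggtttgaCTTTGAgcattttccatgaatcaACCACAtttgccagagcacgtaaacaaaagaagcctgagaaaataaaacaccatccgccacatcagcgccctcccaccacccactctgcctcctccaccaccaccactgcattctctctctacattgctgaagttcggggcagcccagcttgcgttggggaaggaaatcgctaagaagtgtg

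TRAC and TRBC2 stood in dense groups of regions, and TRDC, TRGC1 and TRGC2 did not. TRAC (chr14:23016447-23021099, plus strand), the constant gene of the alpha chain, had 12 regions, 11.5 per 100 kb. TRBC2 (chr7:142498725-142500432, plus strand), a constant gene of the beta chain, had 9 regions, 8.85 per 100 kb. Over 20163 protein-coding genes counted in the same way, the median was 2.41 regions per 100 kb with quartiles of 0.968 and 4, and 99.7% of them had a lower density than TRAC and 98.4% a lower density than TRBC2. TRDC (chr14:22931924-22934779, plus strand), the constant gene of the delta chain, had 1 region, 0.972 per 100 kb, and 25.2% of coding genes had a lower density. TRGC1 (chr7:38297480-38305279, minus strand) and TRGC2 (chr7:38279181-38289173, minus strand), the constant genes of the gamma chain, shared the same 2 regions, 1.86 and 1.82 per 100 kb, with 40.3% and 39.4% of coding genes below them.

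The regions lay beside the constant genes rather than in them. Of the 23, 1 lay in a gene body, in an intron of TRAC. At TRAC, 9 regions were downstream and 2 upstream. At TRBC2, 5 were downstream and 4 upstream. At TRGC1 and TRGC2 both regions were downstream. No exon of a constant gene overlapped a region in any list.

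Upstream of TRAC the regions ended at the TRAC -40.3 kb region, near TRAJ35, a joining segment of the alpha chain. From there the stretch chr14:22471973-22975879, 504 kb long, held no peak in any of the 4 lists. It contains TRDC, 29 V segments, 3 D segments and 31 J segments of the alpha and delta chains, and no protein-coding gene. Of 40502 stretches between neighbouring regions without an assembly gap, 98.2% were shorter, and their median was 24.2 kb. All 3 TRDD, all 4 TRDJ and all 3 TRDV segments were more than 1 kb from any region. Of 50-base windows taken at every 100th base of this stretch, 3.93% occurred elsewhere in the genome. Read coverage of the stretch was not analysed here, and whether its DNA is present in these cells was not tested.

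**Figure D1:**
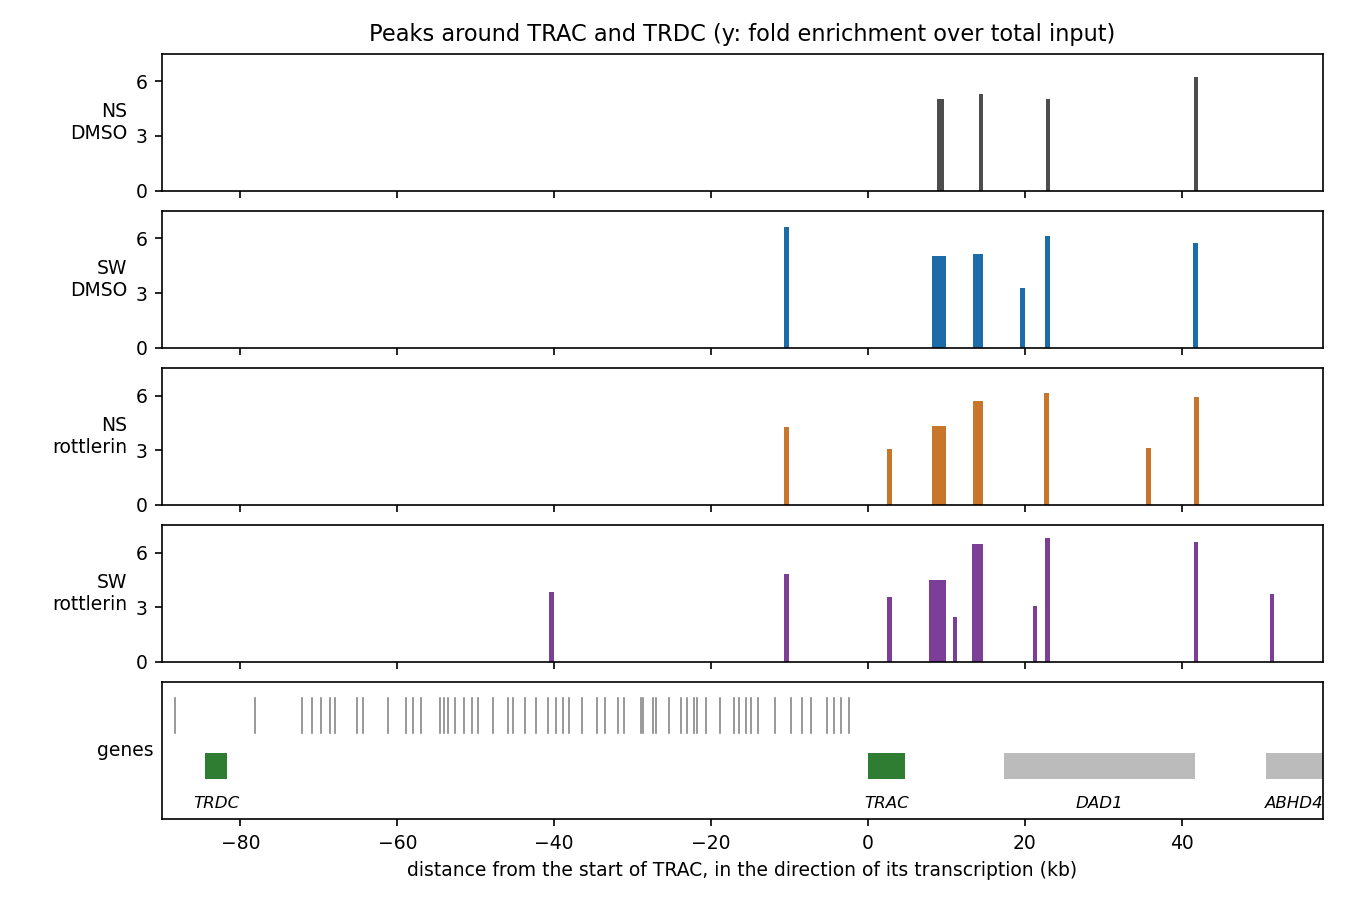
Peaks of each list around TRAC and TRDC. The x axis is the distance from the start of TRAC in kb, bars stand at the position of each peak (narrow peaks are drawn at a minimum width) and their height is fold enrichment over total input, grey ticks are gene segments, green boxes constant genes and grey boxes protein-coding genes; 9 of 12 regions lie downstream of TRAC, and between TRDC and the TRAC -40.3 kb region no list has a peak.

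The alpha locus held 4 regions with a peak in all 4 lists, all downstream of TRAC. Closest to the gene was the TRAC +8.89 kb region (chr14:23024283-23026383), 2101 bases wide, whose middle lies 4.23 kb past the end of TRAC. It overlaps exons of the non-coding genes LINC02332 and ENSG00000259003. Its fold enrichment over total input, the mean across the peak, was 5.04 in NS DMSO, 5.02 in SW DMSO, 4.34 in NS rottlerin and 4.51 in SW rottlerin. The highest value was 1.16 times the lowest, with the values of the DMSO lists above those of the rottlerin lists.

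The sequence of the TRAC +8.89 kb region, given first above, held the CRE match at chr14:23025349-23025356, 4.25 kb past the end of TRAC, with a TCF/LEF match downstream of it and an ETS match upstream. The 8-base CRE sequence was present in the central 300 bases of 0.985% of all 40703 regions and of 1 of the 23. The peak of each of the 4 lists covered this CRE match.

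Next downstream, the intergenic TRAC +14 kb region (chr14:23029695-23031108) had a fold enrichment of 5.28 in NS DMSO, 5.14 in SW DMSO, 5.7 in NS rottlerin and 6.46 in SW rottlerin. The TRAC +22.8 kb region (chr14:23038934-23039571), in an intron of DAD1, had 5.04, 6.14, 6.11 and 6.81 in the same order. DAD1, a subunit of the oligosaccharyltransferase that attaches sugars to new proteins, is the next coding gene downstream of TRAC. The TRAC +41.9 kb region (chr14:23057994-23058624), at the start of DAD1 and overlapping an exon and its UTR, had 6.26, 5.74, 5.9 and 6.59. SW rottlerin was the highest list in these 3 regions, and the highest value was between 1.15 and 1.35 times the lowest.

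The TRAC -10.4 kb region (chr14:23005870-23006193), between the joining segments and 536 bases from TRAJ7, had no peak in NS DMSO. Its fold enrichment was 6.6 in SW DMSO, 4.28 in NS rottlerin and 4.8 in SW rottlerin. The value in SW DMSO was higher than 97% of all peaks in that list, and the value in NS rottlerin was higher than 57.3% in its own. NS rottlerin had 0.649 times the value of SW DMSO.

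The central 300 bases of this region are given here, chosen after the values were seen, with AP1 matches (TGANTCA), the sequence bound by FOS and JUN dimers, in capitals.
TRAC -10.4 kb region, chr14:23005882-23006181: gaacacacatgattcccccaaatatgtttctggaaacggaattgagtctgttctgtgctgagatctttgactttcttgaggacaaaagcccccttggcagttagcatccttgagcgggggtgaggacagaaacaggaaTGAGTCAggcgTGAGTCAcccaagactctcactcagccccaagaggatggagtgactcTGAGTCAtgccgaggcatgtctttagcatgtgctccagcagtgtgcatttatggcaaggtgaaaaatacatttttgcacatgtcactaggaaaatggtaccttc
It held 3 AP1 matches, each reading TGAGTCA on the plus strand. Of all regions, 17.9% held at least 1 AP1 match and 0.263% held 3 or more. Among regions with a peak in SW DMSO and none in NS DMSO, 37.1% held at least 1 and 1.08% held 3 or more.

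The remaining 7 regions of the alpha locus were each in 1 or 2 lists. The TRAC +2.76 kb region (chr14:23019022-23019386), in the TRAC intron, had 3.08 in NS rottlerin and 3.58 in SW rottlerin and no peak in the DMSO lists. In SW rottlerin alone were the TRAC -40.3 kb region at 3.85, the TRAC +11.1 kb region at 2.46, the TRAC +21.3 kb region at 3.09 and the TRAC +51.5 kb region, in ABHD4 and the non-coding ENSG00000275552, at 3.75. SW DMSO alone had the TRAC +19.7 kb region, which overlaps an exon of DAD1, at 3.27, and NS rottlerin alone had the TRAC +35.8 kb region, in an intron of DAD1, at 3.11. These 7 had lower values than any of the 4 regions found in every list, and the TRAC +11.1 kb peak had a q-value of 0.055, the weakest of the 23 regions.

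At the beta locus 3 regions had a peak in all 4 lists. The widest was the TRBC2 +7.67 kb region (chr7:142505438-142507357), 1920 bases wide and intergenic, with its middle 5.96 kb past the end of TRBC2. It had 5.34 in NS DMSO, 4.78 in SW DMSO, 5.11 in NS rottlerin and 5.66 in SW rottlerin, a range of 1.18 times. Its printed centre held an ETS match. Over its whole length it held 9 AP1, 4 GATA, 3 ETS, 3 TCF/LEF and 2 RUNX matches, among others. Such counts grow with width, and the median width of all regions was 294 bases. They were not compared with regions of like width.

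The TRBC2 +3.86 kb region, 2.15 kb past the end of the gene, had 3.63 in NS DMSO, 4.54 in SW DMSO, 3.54 in NS rottlerin and 5.79 in SW rottlerin. Both SW lists were above both NS lists, and SW rottlerin had 1.64 times the value of NS rottlerin. The TRBC2 -4.92 kb region (chr7:142493583-142494026) overlaps TRBD1, as the annotation names the diversity segment there, and had 4.44, 5.13, 5.26 and 4.35 in the same order. There SW rottlerin was the lowest list, with 0.98 times the value of NS DMSO.

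On either side of TRBC2, 2 regions had a peak in every list but NS DMSO. The TRBC2 -7.54 kb region (chr7:142490977-142491397) had 4.09 in SW DMSO, 3.21 in NS rottlerin and 4.41 in SW rottlerin. The TRBC2 +10.3 kb region (chr7:142508866-142509138) had 4.24, 3.65 and 4.34. In both, NS rottlerin was the lowest of the 3 lists with a peak.

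Of the other 4 regions of the beta locus, 3 were in SW DMSO alone. These were the TRBC2 -2.89 kb region at 2.83, the TRBC2 +5.9 kb region at 2.89 and the TRBC2 -0.724 kb region (chr7:142497911-142498091) at 4.45. The last is the region closest to the start of TRBC2, and its value was higher than 66.2% of the peaks of its list, while the others were above 3.02% and 4.16%. SW rottlerin alone had the TRBC2 +27.1 kb region at 3.26.

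**Figure D2:**
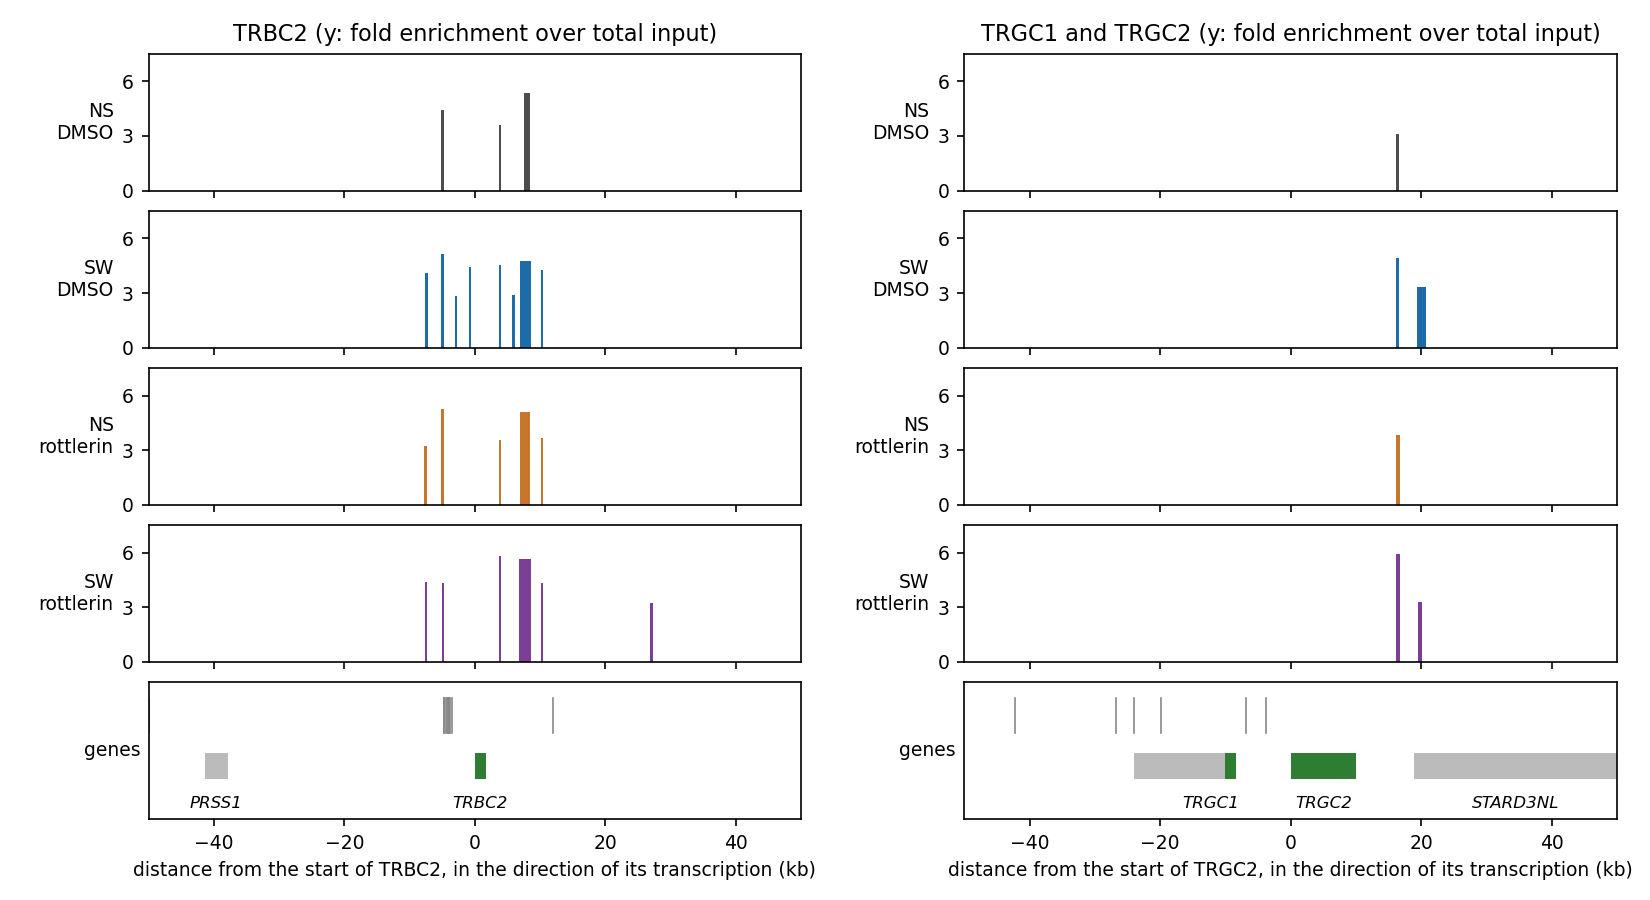
Peaks of each list around TRBC2 (left) and around TRGC1 and TRGC2 (right). Axes and colours are as in the map of TRAC, with distance from the start of TRBC2 and of TRGC2. Narrow peaks are drawn at a minimum width, and the unlabelled grey box is TARP, a coding gene that overlaps TRGC1. Of the 9 regions of the beta locus, 8 have a peak in SW DMSO and 3 in NS DMSO. Over all regions the shares are 49.3% and 46.5%. The gamma locus has peaks only on the downstream side.

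The gamma locus held the region that differed most between lists among those in all 4. The TRGC2 +16.4 kb region (chr7:38272470-38273024), intergenic with its middle 6.43 kb past the end of TRGC2, had 3.11 in NS DMSO, 4.93 in SW DMSO, 3.85 in NS rottlerin and 5.93 in SW rottlerin. The highest value was 1.91 times the lowest. Both SW lists were above both NS lists. SW DMSO had 1.59 times the value of NS DMSO, and SW rottlerin had 1.54 times the value of NS rottlerin. In NS DMSO the value was higher than 9.19% of that list's peaks, and in SW rottlerin higher than 91.2%. Its centre held 2 RUNX matches with a TCF/LEF match between them.

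The TRGC2 +20.1 kb region (chr7:38268382-38269798), which overlaps an exon of STARD3NL, a gene for a late endosome membrane protein, had 3.32 in SW DMSO and 3.29 in SW rottlerin and no peak in the NS lists. Upstream, no region lay within 62082 bases of TRGC1 or 78188 bases of TRGC2. That stretch of 94.3 kb between regions holds TRGC1, TRGC2, 5 V and 5 J segments of the gamma chain. It also holds 1 protein-coding gene, TARP, and 84% of stretches were shorter. TRGC1 and TRGC2 are close copies, and 25.5% and 20.6% of their 50-base windows occurred elsewhere in the genome, so reads of 50 bases from those windows cannot be placed at 1 of the copies. In the upstream stretch 11% of windows did so. None of the windows of the 23 regions, of TRBC2 or of TRDC was repeated in the build used. For TRBC2 this does not show that its reads were told apart from those of TRBC1, a near-identical copy. TRBC1 was not placed, and the 8 placed J segments of the beta chain were all TRBJ2 segments. The search found no second copy in the build of any 50-base or 36-base window of TRBC2. The TRBC1 sequence itself was not searched for.

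Across the 23 regions, 8 had a peak in NS DMSO, against 46.5% of all regions. SW DMSO had 16 of 23, against 49.3%. NS rottlerin had 13, against 58.4%, and SW rottlerin had 18, against 74.5%. SW DMSO was the list in which the receptor regions were most in excess of the share over all regions. NS DMSO was the one in which they fell short of it by the most. The excess in SW DMSO lay at the beta locus, with 8 of 9 regions, and the gamma locus, with 2 of 2. At the alpha and delta locus SW DMSO had 6 of 12, close to the share of 49.3%. In all 4 lists there were 8 of 23, against 26.6%, and in every list but NS DMSO 3 of 23, against 7.08%. Each of the 8 receptor regions in NS DMSO was also in the other 3 lists, as were 10841 of the 18920 regions in NS DMSO overall.

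The number of peaks differed between lists, from 18977 in NS DMSO to 20132 in SW DMSO, 23835 in NS rottlerin and 30409 in SW rottlerin, and read depth is unknown from these files. With the 18977 highest-scoring peaks of every list, the receptor genes had 15 regions. Of these, 8 had a peak in NS DMSO, 14 in SW DMSO, 10 in NS rottlerin and 12 in SW rottlerin. The shares over all regions at this cut were not counted, so these counts cannot be set against the shares above. The part of list length in these counts was not tested further.

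The median fold enrichment of the receptor regions with a peak was above that of all regions in each list. The median over the receptor regions was 5.04 in NS DMSO against 4.06 over all regions, 4.66 against 4.03 in SW DMSO, 4.28 against 4.09 in NS rottlerin and 4.38 against 4.03 in SW rottlerin. All 8 receptor regions in NS DMSO were in all 4 lists, unlike those of the other lists, so these gaps are not comparable between lists. Over all regions in 4 lists the medians were 4.44 in NS DMSO, 4.38 in SW DMSO, 4.64 in NS rottlerin and 4.81 in SW rottlerin. Of the 8 receptor regions in all 4 lists, the TRGC2 +16.4 kb region was the 1 at least 1.5 times higher in SW DMSO than in NS DMSO, against 1.67% of all such pairs of peaks. For NS rottlerin over NS DMSO it was 0 of 8, against 3.19%. For SW rottlerin over NS DMSO it was 2 of 8, the TRGC2 +16.4 kb and TRBC2 +3.86 kb regions, against 4.5%. When values were divided by each list's median over the regions in all 4 lists, the TRBC2 +3.86 kb region was 1.47 times higher and no longer past the limit.

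Width set 3 regions apart. The TRAC +8.89 kb peak covered 936 bases in NS DMSO, 1792 in SW DMSO, 1720 in NS rottlerin and 2101 in SW rottlerin. The TRAC +14 kb peak covered 386, 1229, 1183 and 1414 bases in the same order, and the TRBC2 +7.67 kb peak 942, 1766, 1668 and 1840. In each, the peaks of all 3 other lists were at least 1.5 times as wide as that of NS DMSO. These 3 lists lay close together, while fold enrichment differed by at most 1.26 times. In the other 5 regions, widths ran from 257 to 632 bases. NS DMSO was the narrowest in these too, except in the TRBC2 +3.86 kb region, with 368 bases in NS DMSO and 347 in NS rottlerin.

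Peak width was compared after its values were seen. A peak at least 1.5 times wider than in NS DMSO was found in 3 of the 8 regions for SW DMSO, against 11.8% of all regions with a peak in both lists, in 4 of 8 for NS rottlerin, against 14.5%, and in 4 of 8 for SW rottlerin, against 21.5%. All 3 other lists were at least 1.5 times wider in 3 of 8, against 5.03% of all regions in 4 lists. Broad peaks join neighbouring stretches that pass the caller's limit, so width can also move with the depth of a library, which was not tested.

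**Figure D3:**
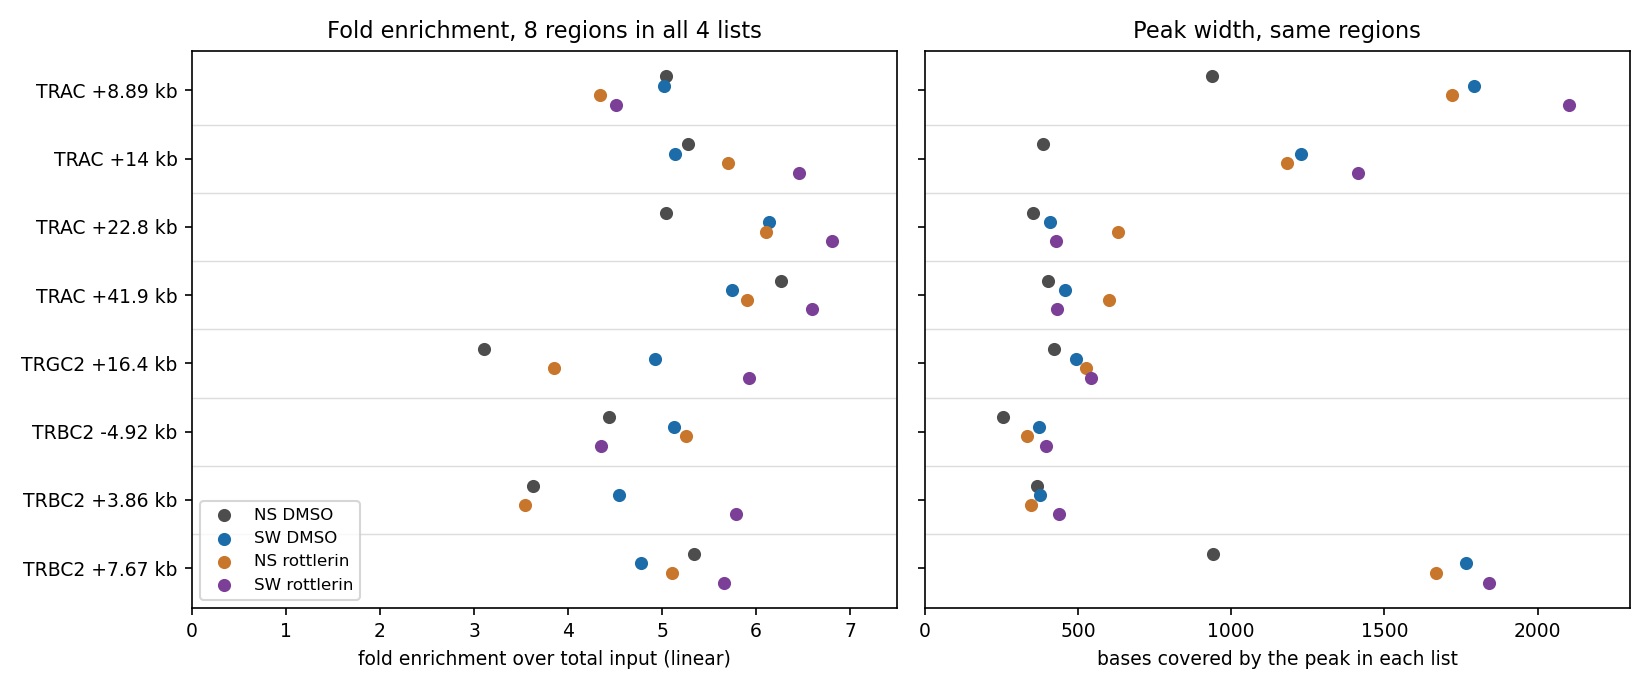
The 8 receptor regions found in all 4 lists. Points give fold enrichment over total input (left) and the bases covered by the peak (right) in each list, 1 library each. The TRGC2 +16.4 kb region has the widest range of fold enrichment, from 3.11 to 5.93. NS DMSO has the narrowest peak in all but the TRBC2 +3.86 kb region. In the TRAC +8.89 kb, TRAC +14 kb and TRBC2 +7.67 kb regions all 3 other lists are at least 1.5 times wider.

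Sequence features other than those printed were counted in the central 300 bases on both strands. AP1 (TGANTCA) was found in 9 of the 23 regions against 17.9% of all regions, NFAT (TGGAAA), bound by the calcium-dependent factors of T-cell activation, in 10 against 27.9%, and GATA in 7 against 21%. ETS was found in 10 against 42.2%, RUNX in 6 against 32.8%, TCF/LEF in 5 against 23.2% and the E-box (CANCTG) in 16 against 55.5%. The short CRE sequence TGACG, which is part of the CRE and so overlaps it, was found in 4 against 17.5%, the CTCF core CCCTC in 15 against 57.8%, and the NF-κB sequence GGGANTTCC in 0 against 1.41%.

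The share of regions with AP1 was also set out by list, a comparison chosen after seeing the data. Over all regions AP1 was found in 8.83% of those with a peak in NS DMSO and 25.8% of those without. At the receptor genes it was found in 3 of 8 and 6 of 15. Of the 8 receptor regions with a peak in SW DMSO and none in NS DMSO, 4 held AP1, namely the TRAC -10.4 kb, TRBC2 -2.89 kb, TRBC2 +5.9 kb and TRGC2 +20.1 kb regions, against 37.1% of such regions in all.

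**Figure D4:**
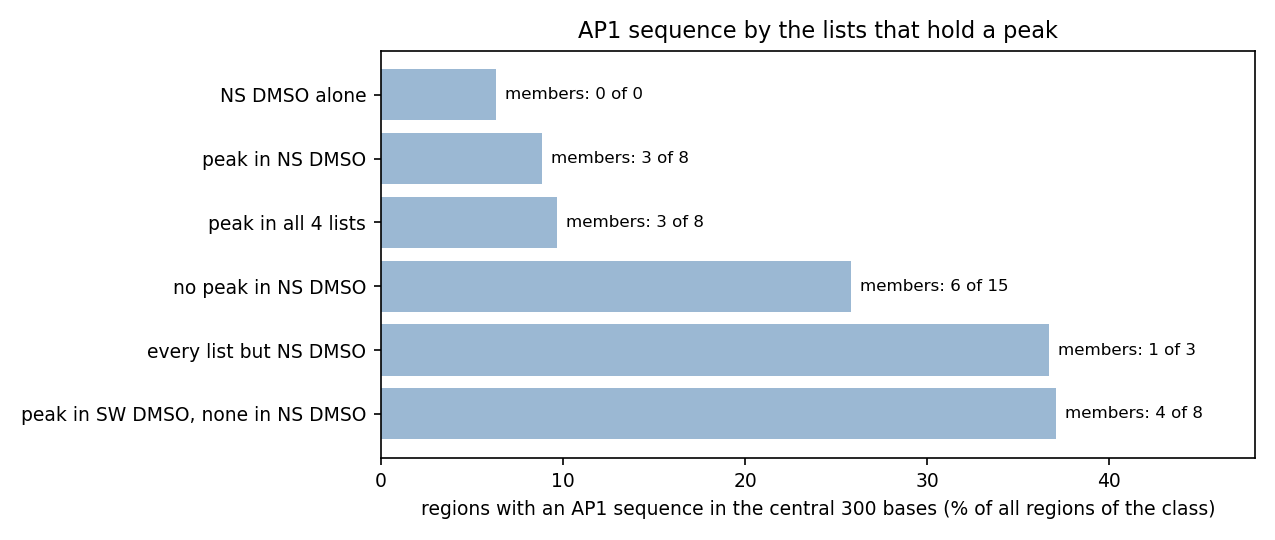
Share of regions with an AP1 sequence (TGANTCA, either strand) in the central 300 bases, by the lists that hold a peak. Bars are percentages of all regions of a class, classes overlap, and the text beside each bar counts the receptor regions; over all regions the share is 6.31% where NS DMSO alone has a peak and 37.1% where SW DMSO has a peak and NS DMSO has none.

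The other chains of the receptor complex were counted in the same way. CD3D, CD3E and CD3G, which carry the signal into the cell and lie side by side on chromosome 11, had 10, 13 and 11 regions within 50 kb, most of them shared. CD247, the zeta chain, had 7 and PTCRA, the alpha chain of the immature receptor, had 3. Together the 5 genes had 24 regions, of which 12 were in NS DMSO, against 46.5% of all regions, and 14 in SW DMSO, against 49.3%. NS rottlerin had 15, against 58.4%, SW rottlerin had 17, against 74.5%, and 8 were in all 4 lists, against 26.6%. The difference from the constant genes was not tested.

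The constant genes of B-cell receptors were counted in the same way. Of 14 genes, IGHM, IGHD, IGHE, IGHA1, IGHA2, IGHG1, IGHG2, IGHG3, IGHG4 and IGKC had 0 regions within 50 kb. Of all coding genes, 12.1% had none, but the IGH genes lie together on chromosome 14, so their counts are not separate from each other. IGLC1, IGLC2 and IGLC3, of the lambda chain, had the same 2 regions, and IGLC7 had 1 of these. Of the 2, 2 were in SW DMSO, 1 in NS DMSO, 1 in SW rottlerin and 0 in NS rottlerin, too few to set against the shares over all regions. The cell type labelled was checked in the same lists. A region in any list lay within 1 kb of a start of 7 of 9 T cell markers, CD2 and CD7 being those without. The same held for 1 of 5 B cell, 0 of 4 myeloid and 0 of 3 erythroid markers. Of the T cell markers 5 had a peak there in all 4 lists, and of the B cell markers 0. The share of all coding genes with such a region was not counted.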

How the data were processed

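FAIRE DNA and total input from Jurkat cells were sequenced as single-end reads of 50 bases. According to the methods and the processing notes, the authors used cutadapt for adapters, Bowtie2 for mapping to hg19, Picard for duplicate reads and MACS2 in broad mode for peaks of each sample over total input. The deposited lists give a score per peak, the fold enrichment as a ratio over input in column 7, and the −log10 of the p-value and of the q-value. Here the score and fold were used, and q-values came from the −log10 column. Peaks that overlapped or touched were joined, and where a list had several peaks in a region the highest fold was taken, although no list had more than 1 peak in a receptor region. Other contigs entered the total of 40731 regions only.

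Regions were placed with GENCODE release 44 on GRCh37, and sequences were read from the same build, the one of the files. Genes named are the constant genes, genes or segments that a region overlaps or starts nearest to, and the listed genes of the receptor complex and of B-cell receptors. Sequences are printed for some regions only, and that of the TRBC2 +3.86 kb region is not reported here. Consensus sequences were searched on both strands, and windows of 50 bases were counted over the whole genome for uniqueness. The members and lists were chosen with earlier results of these data known. No test was run, since each list is 1 library. Steps were tested on simulated data. Python 3.11.15, numpy 2.4.6, pandas 2.3.3 and matplotlib 3.10.9 were used. Alternatives were other windows and joining rules, stricter sets of peaks, other scalings of column 7, other motif windows and each list left out.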

Additional observations from a re-analysis of the deposited data

How the results depend on the processing

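Of 144 values under alternatives, 113 stayed within 1.5 times. Some of these had little room to move, since leaving out 1 list barely touches the count of another. With 10 kb windows there were 14 regions in all, 4 at TRAC, 0 at TRDC, 0 at TRGC1 and 11 in SW rottlerin, and with 100 kb windows 6 each at TRDC, TRGC1 and TRGC2. The same number of highest-scoring peaks per list gave 15 in all, 6 at TRAC and 0 at TRDC. The higher-scoring part of each list (50 percent) gave 11 in all, 5 at TRAC, 0 at TRDC, 5 at TRBC2, 1 at TRGC1, 1 at TRGC2, 7 in NS rottlerin, 9 in SW rottlerin and 1 in every list but NS DMSO. Without the SW rottlerin list TRDC had 0. Fewer peaks or a smaller window make these counts smaller by construction. At least 1.5 times NS DMSO, the score gave 3 regions in SW DMSO and 3 in NS rottlerin. Division by each list's median over the regions in all 4 lists gave 1 in SW rottlerin. A limit below 1.5 gave 2 in SW DMSO, and a limit of 2 gave 0 in SW DMSO and 0 in SW rottlerin. Over whole regions TCF/LEF and RUNX were each found in 10. Windows of 36 bases were repeated in 1 region, and 200 bp around starts left 0 B cell markers. The cause of these moves was not tested otherwise. No paired analysis was possible because each group has 1 sample. Depth is unknown, so a missing peak does not show closed chromatin.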
